A study of Mus musculus with 8 samples.

Results

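The genes described here are 8 transcripts that mark newly formed oligodendrocytes (OLs): Enpp6, Bcas1, Tmem163, Tmem2, Itpr2, Fyn, Rras2 and Lims2. They were taken by gene symbol from a table of RNA-seq values that holds 24081 unique genes, and all 8 were found there. RNA was measured in whole brainstem (BS) of 4 KI and 4 control mice on the C57BL/6 strain, collected at P19 per the labels. KI mice carried the alleles hPDGFRA fl/+ and p53 fl/fl together with the drivers Olig2-Tv-a/Cre and Nestin tv-a. Control mice carried p53 fl/fl and both drivers without hPDGFRA. In KI mice a human PDGFRA cDNA at the Rosa26 locus is transcribed from the CAG promoter once Cre, which is made in cells that express Olig2, has removed a floxed stop. The control mice carry the same floxed p53 alleles and the same Cre, so the comparison is of hPDGFRA on a p53-deleted background, and it holds no mice with intact p53. The labels give each library as a separate sample and do not say whether mice were littermates, so p-values measure the spread between these 8 samples.

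Oligodendrocyte progenitor cells (OPCs) divide in response to PDGF through PDGFRA, leave the cell cycle and pass through a short newly formed stage before they wrap axons. Newly formed OLs extend many processes, switch on the first myelin proteins and carry a set of transcripts that peak around this stage, some of which are also made at other stages or in other cells. Enpp6 and Bcas1 are widely used to find the cells of this stage, and at the age sampled here the BS of a normal mouse is actively forming myelin. The question was how the transcripts of this stage compared between BS that overexpressed PDGFRA in the Olig2 lineage and BS that did not.

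The promoters of 5 members, taken from the RefSeq promoter table (build GRCm38.p6), were searched on both strands. Each window ran from 250 bases before to 50 after the start of transcription. The motifs were short forms of sites for factors of the OL lineage: a SOX site in the form ACAAAG or in the form ACAATG, an E-box of the OLIG2 type in the form CAGATG, in the form CAGCTG or in the form CATATG, and a MYRF core in the form CTGGCAC or in the form CTGGTAC. No motif overlaps another. The members matched were Enpp6, Tmem163, Itpr2, Fyn and Rras2. The Enpp6 window at chr8:46986637-46986936 (plus strand) and the Rras2 window at chr7:114117732-114118031 (minus strand) are printed because they are the windows with a match, which stands in capitals.
Enpp6: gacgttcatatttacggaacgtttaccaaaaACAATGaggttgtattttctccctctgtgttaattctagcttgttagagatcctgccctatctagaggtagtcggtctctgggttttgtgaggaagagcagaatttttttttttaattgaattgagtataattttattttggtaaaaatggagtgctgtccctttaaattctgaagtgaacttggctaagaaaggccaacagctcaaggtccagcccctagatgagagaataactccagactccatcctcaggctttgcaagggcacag
Rras2: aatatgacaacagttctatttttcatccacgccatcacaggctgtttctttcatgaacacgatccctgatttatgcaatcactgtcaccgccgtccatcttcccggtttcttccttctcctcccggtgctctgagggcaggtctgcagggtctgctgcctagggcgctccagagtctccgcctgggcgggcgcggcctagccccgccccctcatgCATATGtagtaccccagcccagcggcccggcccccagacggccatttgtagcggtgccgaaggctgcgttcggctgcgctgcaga
The capitals in Enpp6 mark the SOX letters ACAATG, which begin at position -219 from the start of transcription. The capitals in Rras2 mark the E-box letters CATATG, which begin at position -35. A SOX site was found in 1 of the 5 member windows and in 28.6% of all 32851 windows, an E-box in 1 of 5 and in 33.4% of all windows, and the MYRF core in 0 of 5 and in 7.10% of all windows. These matches are letters in a window and describe no binding. The windows also differed in base content, with 40.3% G and C in Enpp6 and 60.3% in Rras2, against a median of 52.7% over all windows.

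The libraries held 21492789 to 24458589 reads in KI BS and 24816146 to 27716846 reads in control BS, and the deepest KI library held fewer reads than the shallowest control. Transcription from the Rosa26 locus (Gt(ROSA)26Sor) had normalized counts, which are read counts divided by a size factor of the library, of 603, 605, 573 and 328 in KI BS (replicates 1 to 4), against 82.9 to 93.9 in control BS. Pdgfra, with reads aligned to the mouse genome, was at 11437, 9706, 8939 and 3269 normalized counts in the KI libraries. In the control libraries Pdgfra was at 2565 to 3087. All KI libraries were therefore above all controls in both Gt(ROSA)26Sor and Pdgfra, and KI replicate 4 was the lowest of the KI libraries in both. How many of the Pdgfra reads came from the human cDNA was not tested. 2 libraries, KI replicate 3 and control replicate 4, held far less Ttr, a choroid plexus transcript, with 237 and 44.9 normalized counts, against 14985 to 97274 in the others. Xist, which marks female tissue, was high (4155 to 8943 normalized counts) in KI replicate 4, control replicate 2 and control replicate 3 and at 43.9 or less in the others.

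All 8 genes of the newly formed stage were lower in KI than in control BS. Each passed the test across all genes (limma on log2(normalized count + 1), Benjamini-Hochberg adjusted p at or under 0.05 over 15123 genes whose mean over the libraries was 10 normalized counts or more). Over all genes tested, 12.4% were called lower and 12.0% higher, and the median log2 fold change was -0.004, against a median of -1.12 over the 8 genes. In 5 of the 8 (Tmem163, Tmem2, Itpr2, Fyn and Lims2) every KI library was below every control library, a pattern that 12.8% of all genes tested showed. In the other 3 (Enpp6, Bcas1 and Rras2) KI replicate 4 lay within the control range. Because whole BS was measured, fewer newly formed OLs and less RNA of these genes per cell cannot be told apart.

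**Figure D1:**
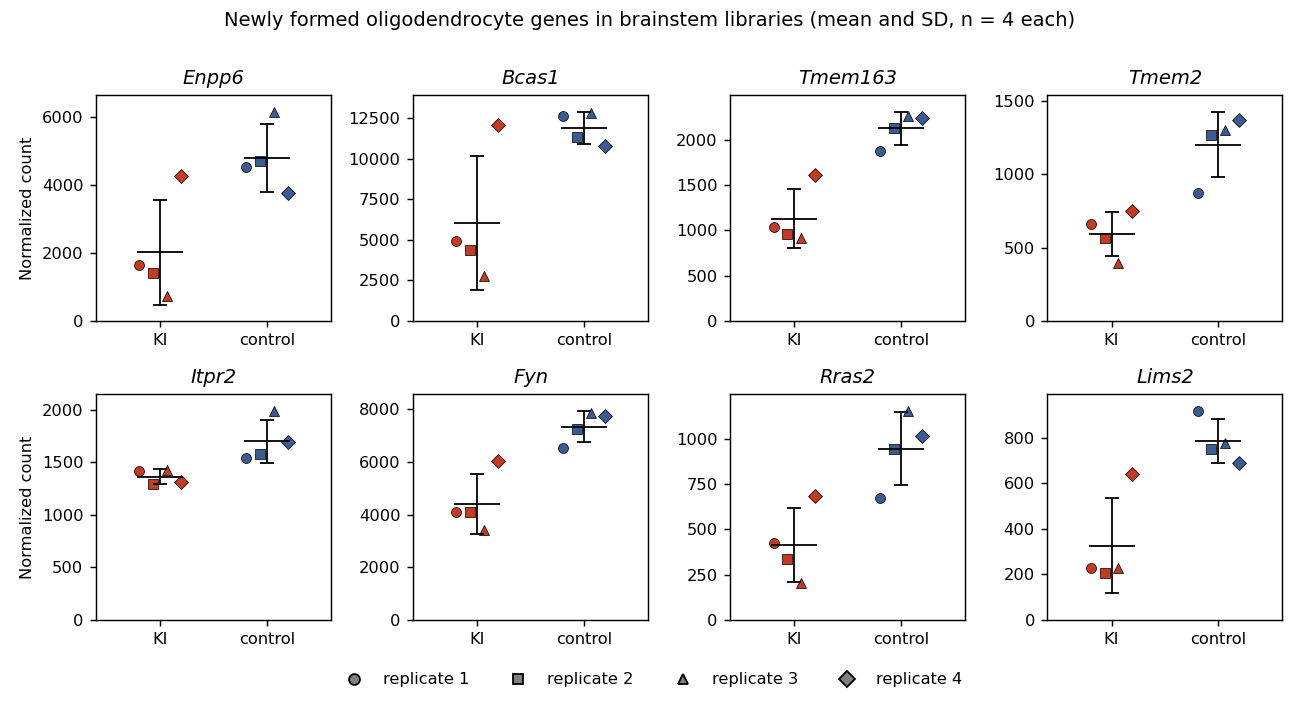
Normalized counts of the 8 genes in each BS library, KI on the left and control on the right, with 1 marker shape per replicate number and the mean and SD of 4 libraries in black. In 7 of 8 genes the highest KI library is replicate 4, and in Enpp6, Bcas1 and Rras2 it reaches the control range, while Itpr2 shows the tightest KI libraries.

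The number of these calls varied with the libraries. Without KI replicate 1, 2, 3 or 4 the test called 5, 3, 5 and 8 of the 8 genes, and without control replicate 1, 2, 3 or 4 it called 6, 3, 4 and 6. All 8 log2 fold changes stayed negative in each of these fits. The number of all genes called moved as well, between 888 without control replicate 2 and 5292 without KI replicate 4. Tmem163, Tmem2 and Fyn were called in every one of these 8 fits. The edgeR and DESeq2 tests on whole reads each called 6 of the 8 genes lower and 0 higher, leaving out Enpp6 and Bcas1. All 8 had an unadjusted p under 0.05 in both. Of all 15123 genes, edgeR called 3627 and DESeq2 called 4417 in either direction. An unadjusted p under 0.05 was reached by 5916 of them in edgeR and 5962 in DESeq2.

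Enpp6 and Bcas1 are the members most used as markers of the stage. Enpp6 (ENSMUSG00000038173, GRCm38 chromosome 8, 46986887 to 47096762, plus strand, 8 merged exons) encodes a choline-specific glycerophosphodiester phosphodiesterase on the cell surface. It had 1648, 1388, 721 and 4265 normalized counts in KI replicates 1 to 4, against 4503, 4691, 6140 and 3744 in control replicates 1 to 4. KI replicates 1 to 3 lay below all controls, whereas KI replicate 4 was above control replicate 4, so the groups overlapped. The log2 fold change was -1.53 ± 0.44 (SE, adjusted p = 0.0358, n = 4 each, limma), the most negative of the 8, and its 95% interval ran from -2.52 to -0.53. Without any 1 of KI replicates 1 to 3 or control replicates 1 to 3 the adjusted p was 0.0619 to 0.0981, and without KI replicate 4 it was 0.000999 with a log2 fold change of -1.99.

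Bcas1 (ENSMUSG00000013523, chromosome 2, 170346991 to 170427845, minus strand, 17 merged exons) encodes a protein found in myelin and in OLs that are starting to myelinate. Its normalized counts were 4934, 4364, 2765 and 12106 in the KI libraries, against 12667, 11375, 12836 and 10786 in the control libraries. KI replicate 4 stood at 102% of the control mean, and the other 3 KI libraries stood at 23.2% to 41.4% of it. Its log2 fold change was -1.20 ± 0.36 (SE, adjusted p = 0.0415, n = 4 each, limma). Leaving out KI replicate 4 gave an adjusted p of 0.000441 with a log2 fold change of -1.61, and leaving out any 1 of the other 7 libraries gave an adjusted p of 0.0592 to 0.111. The exons of Bcas1 share 440 and 34 bases with Bcas1os1 and Bcas1os2 on the other strand. The counting used no strand and left out reads that could not be assigned to 1 gene.

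Tmem163 and Tmem2 encode proteins that span membranes. Tmem163 (ENSMUSG00000026347, chromosome 1, 127486546 to 127679548, minus strand, 10 merged exons) encodes a transporter that moves zinc out of cells. Its normalized counts were 1035, 956, 914 and 1614 in KI BS, against 1876, 2132, 2272 and 2251 in control BS. The highest KI library lay below the lowest control, so the groups did not overlap. The log2 fold change was -0.95 ± 0.17 (SE, adjusted p = 0.0104, n = 4 each, limma), the smallest adjusted p of the 8. In the fits without 1 library it lay between -1.14 and -0.86, with an adjusted p of 0.0432 or less. Its exons share 152 bases with those of Mgat5 on the other strand.

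Tmem2 (ENSMUSG00000024754, chromosome 19, 21778342 to 21858360, plus strand, 25 merged exons) encodes a transmembrane hyaluronidase that cuts hyaluronan outside the cell. It had 663, 562, 393 and 748 normalized counts in KI libraries and 874, 1267, 1305 and 1368 in control libraries. The groups did not overlap, and control replicate 1 was the lowest control. For Tmem2 the log2 fold change was -1.04 ± 0.21 (SE, adjusted p = 0.0126, n = 4 each, limma) and stayed between -1.19 and -0.86 when any 1 library was left out. Its exons share 97 bases with an antisense transcript (AC148016.1).

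Fyn, Itpr2, Rras2 and Lims2 encode signaling proteins inside the cell. Fyn (ENSMUSG00000019843, chromosome 10, 39368855 to 39565381, plus strand, 20 merged exons) encodes a Src family tyrosine kinase that relays axonal contact signals to the OL cytoskeleton and to local translation of Mbp. Its normalized counts were 4087, 4094, 3396 and 6043 in KI BS, against 6531, 7272, 7847 and 7732 in control BS. All KI libraries were below all controls, with KI replicate 4 the closest to them. Its log2 fold change was -0.77 ± 0.16 (SE, adjusted p = 0.0132, n = 4 each, limma), with a 95% interval from -1.12 to -0.42.

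Itpr2 (ENSMUSG00000030287, chromosome 6, 146108299 to 146502223, minus strand, 63 merged exons) encodes an inositol trisphosphate (IP3) receptor, a calcium channel of the endoplasmic reticulum. It had 1417, 1290, 1428 and 1316 normalized counts in KI libraries and 1540, 1580, 1989 and 1689 in control libraries. The groups did not overlap, but the highest KI and lowest control libraries lay close together. The fitted difference was a log2 fold change of -0.31 ± 0.09 (SE, adjusted p = 0.0319, n = 4 each, limma), the least negative of the 8. Unlike the other 7 genes, Itpr2 was not highest in KI replicate 4, and its coefficient of variation over the KI libraries was 5.12%, against 11.9% over the controls. Leaving out any 1 of KI replicates 1 to 3 or control replicates 2 to 4 gave an adjusted p of 0.0507 to 0.0954. With a loess correction for GC content and length its log2 fold change was -0.18 (95% interval -0.37 to 0.0077, adjusted p = 0.155). Itpr2 is transcribed in other cells of the BS too, including astrocytes, whose markers were higher in KI BS in these libraries, and the part of those cells in the Itpr2 value was not tested.

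Rras2 (ENSMUSG00000055723, chromosome 7, 114046782 to 114117781, minus strand, 6 merged exons) encodes a small GTPase of the R-Ras group, also known as TC21. Its normalized counts were 427, 335, 203 and 683 in KI BS, against 670, 940, 1153 and 1013 in control BS. The overlap came from a single pair, KI replicate 4 being slightly above control replicate 1. For Rras2 the log2 fold change was -1.30 ± 0.33 (SE, adjusted p = 0.0223, n = 4 each, limma), and the adjusted p was 0.0613 to 0.0685 without KI replicate 2, control replicate 2 or control replicate 3. This is the gene whose promoter window holds CATATG, letters that 3.91% of all windows hold, while 33.4% hold any of the E-box forms searched.

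Lims2 (ENSMUSG00000024395, chromosome 18, 31922290 to 31958619, plus strand, 16 merged exons) encodes PINCH2, an adaptor of LIM domains that ties integrin-linked kinase into cell adhesions. It had 230, 206, 227 and 642 normalized counts in KI libraries, against 917, 748, 778 and 690 in control libraries. KI replicates 1 to 3 were nearly equal, at 26.3% to 29.3% of the control mean, and KI replicate 4 stood at 81.9% of it, just below the lowest control. The log2 fold change was -1.43 ± 0.32 (SE, adjusted p = 0.0167, n = 4 each, limma). It was -1.81 without KI replicate 4, and the adjusted p was 0.0538 to 0.0564 without KI replicate 2 or control replicate 2.

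Lims2 shares its locus with Gpr17, a receptor gene that is itself a marker of early OLs and is transcribed from the opposite strand at 31942997 to 31949636. The exons of both share 188 bases, and under the counting used by the authors reads that cannot be assigned to 1 gene are left out. Gpr17 had 702, 812, 304 and 5485 normalized counts in KI BS and 9518, 10421, 10002 and 9277 in control BS. Its log2 fold change was -3.31 ± 0.71 (SE, adjusted p = 0.0147, n = 4 each, limma), with an adjusted p of 0.0510 to 0.0515 without KI replicate 2 or control replicate 2. Lims2 and Gpr17 thus had the same outlying library, KI replicate 4, and how much of the Lims2 value comes from Gpr17 transcripts was not tested.

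**Figure D2:**
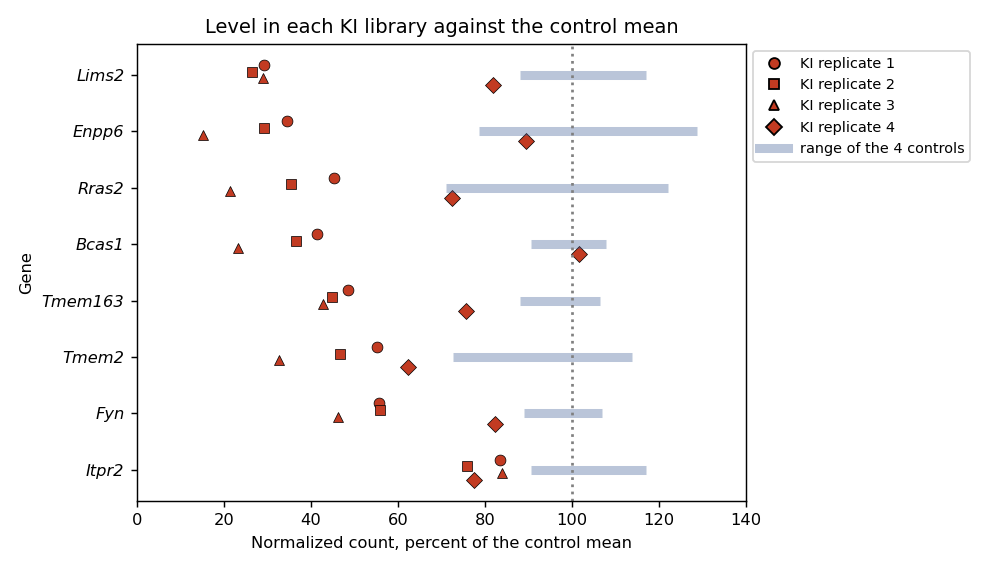
Normalized counts of each gene in the 4 KI libraries (red markers) as a percent of the mean of the 4 control libraries, with the range of the controls as a blue bar and 100% as a dotted line. KI replicates 1 to 3 lie at 15.1% to 55.7% in every gene but Itpr2, and KI replicate 4 lies at 62.2% to 102%.

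The KI libraries were ordered in nearly the same way across the genes. KI replicate 4 was the highest KI library in 7 of 8 genes and KI replicate 3 the lowest in 6 of 8, with Itpr2 and Lims2 lowest in KI replicate 2 instead. The mean log2 difference of the 8 genes from their control means was -1.08, -1.25, -1.62 and -0.32 in KI replicates 1 to 4, against -0.14, -0.01, 0.17 and -0.02 in control replicates 1 to 4. KI replicate 4 was also the KI library with the least Rosa26 transcript and Pdgfra and with high Xist, and KI replicate 3 was the KI library low in Ttr. The part of these differences in the values of the 8 genes was not tested beyond leaving the libraries out. Without the 2 libraries low in Ttr the log2 fold changes ran from -1.38 (Lims2) to -0.34 (Itpr2) and 3 of the 8 genes were called, namely Tmem163, Tmem2 and Fyn. Without the 3 libraries high in Xist 6 of the 8 were called, and with log2 Xist as a covariate 5 were.

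**Figure D3:**
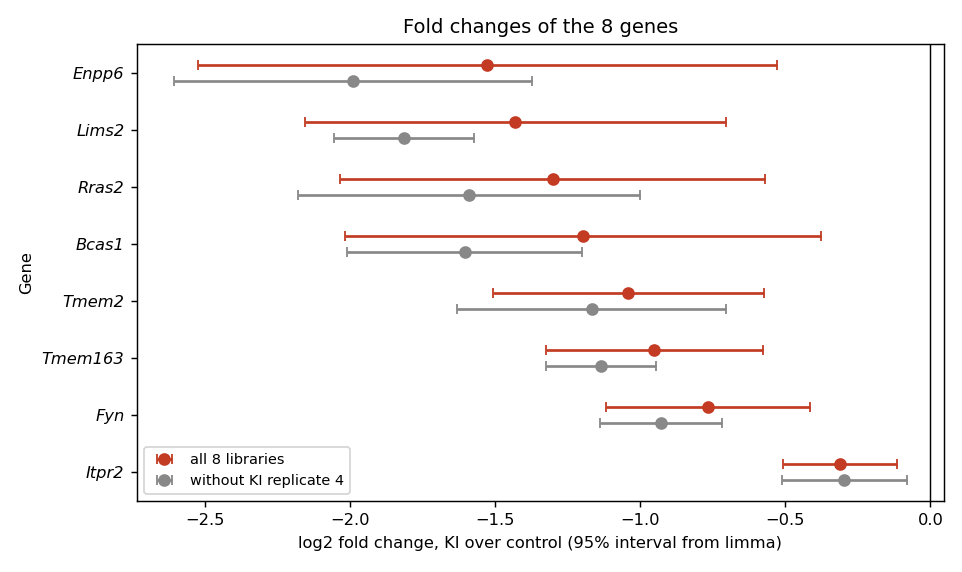
The log2 fold change of each gene, KI over control, with its 95% interval from limma, over all 8 libraries (red) and without KI replicate 4 (grey). Without KI replicate 4 the estimates were more negative for every gene except Itpr2, which was at -0.31 over all libraries and -0.30 without that one.

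Across the 8 libraries, Pearson correlations between the log2 levels of member pairs ran from 0.53 (Bcas1 with Itpr2) to 0.99. Itpr2 was the gene least like the others, at 0.53 to 0.75, and Enpp6 with Bcas1 and Tmem163 with Fyn were each at 0.99. These points fall into 2 groups and share libraries, so the values describe the pattern and carry no test. The genes outside the list whose pattern was most like the mean of the members were Plekha1, Rnf122, Sulf2, 5730559C18Rik and Nfasc, with r from 0.994 to 0.998 over the 8 libraries. For single members the most similar genes included Adam9 for Enpp6 (0.999), 1700047M11Rik for Bcas1, Soga1 for Tmem163, Mpzl1 for Fyn, Arhgap23 for Lims2 and, least similar to its member, Ptk7 for Itpr2 (0.975).

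Per kilobase of merged exon, Bcas1 was the most abundant of the 8, with 1601 ± 1098 normalized counts per kb in KI and 3157 ± 264 in control BS (SD, n = 4 each). Fyn followed with 1010 ± 261 in KI and 1684 ± 137 in control BS, and then Enpp6 with 313 ± 243 in KI and 744 ± 156 in control BS. Tmem163 had 263 ± 76.1 per kb in KI and 497 ± 42.3 in control BS. In control BS the levels of these 4 genes did not overlap between neighbours. Rras2 (116 ± 57.1 per kb in KI and 266 ± 57.0 in control BS) and Lims2 (107 ± 68.8 in KI and 256 ± 31.5 in control BS) overlapped in both groups. Tmem2 (69.4 ± 17.9 in KI and 141 ± 26.3 in control BS) and Itpr2 (92.1 ± 4.71 in KI and 115 ± 13.7 in control BS) also overlapped in both groups, and Tmem2 had the higher mean in control BS but the lower mean in KI BS. In KI BS, Bcas1 overlapped with Fyn, Enpp6 with Tmem163 and Lims2 with Itpr2.

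The relatives of each gene within its protein family were read in the same way. The limma counts called here and in the gene lists below stand beside 12.4% of all genes tested called lower and 12.0% called higher. The edgeR and DESeq2 counts stand beside 3627 and 4417 of 15123 genes called in either direction. Of the 5 other Enpp genes tested, 1 was called lower, Enpp3, at -0.75 ± 0.22 (SE, adjusted p = 0.0389, limma). Enpp2, which encodes autotaxin and is made by OLs and by choroid plexus, was at 12075, 15735, 4605 and 29857 normalized counts in KI BS and at 62363, 50116, 72913 and 17279 in control BS. Its lowest library in each group was the one low in Ttr, and its log2 fold change of -1.81 had an adjusted p of 0.0513. Enpp1, Enpp4 and Enpp5 were at -0.77, -0.56 and -0.06 and were not called, and Enpp7 was listed at 0 in all 8 libraries. Without any 1 of KI replicates 1 to 3 or control replicates 1 to 3 the adjusted p of Enpp3 was 0.0673 to 0.107 and 0 of the 5 genes were called, and without KI replicate 4 there were 4.

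Of the genes that handle choline and phosphatidylcholine, on whose breakdown products ENPP6 acts, 1 of 9 was lower and 2 were higher. The choline transporter gene Slc44a1 was at -1.13 ± 0.30 (SE, adjusted p = 0.0253, limma), with an adjusted p of 0.0537 to 0.0794 without any 1 of KI replicates 1 to 3 or control replicates 1 to 3. Chpt1, the choline phosphotransferase of phosphatidylcholine synthesis, was at 0.95 ± 0.10 (adjusted p = 0.00725), with 4198 to 5605 normalized counts in KI BS and 2358 to 2805 in control BS. Gpcpd1, a glycerophosphocholine phosphodiesterase gene, was at 0.39 ± 0.07 (adjusted p = 0.00941). Both were above every control in every KI library and were called in 8 of 8 fits without 1 library.

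Of the Src family kinases set beside Fyn, none of Src, Yes1, Lyn, Lck and Fgr was called by limma, edgeR or DESeq2, although Fgr, a gene of myeloid cells, had an unadjusted p under 0.05 in all 3 tests. Src was at 0.06 ± 0.09, Yes1 at 0.07 ± 0.13 and Lyn at -0.15 ± 0.12 (log2 fold change ± SE, n = 4 each). Of 11 genes whose products work with FYN in OLs, 6 were lower and 0 higher. They were Ptk2 (focal adhesion kinase, -0.35), Dcc (a netrin receptor, -0.69), Mapt (tau, -0.53), Itgb1 (an integrin chain, -0.45), Csk (the kinase that switches off Src kinases, -0.31) and Arhgap35 (p190RhoGAP, -0.33). Cntn1, which encodes the contactin that binds FYN in OLs and is also made by neurons, was at 0.01 ± 0.07. The 6 calls became 0 without KI replicate 2 or control replicate 2, and 3 to 6 in the fits without any 1 other library.

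The other IP3 receptors, Itpr1 and Itpr3, were at 0.23 ± 0.22 and -0.02 ± 0.17 (log2 fold change ± SE), and neither was called or had an unadjusted p under 0.05 in limma, edgeR or DESeq2. Of 10 genes for making or clearing IP3 and for refilling calcium stores, 2 were higher, Itpkb (an IP3 kinase, 0.54 ± 0.15) and Plcb1 (a phospholipase C, 0.60 ± 0.17), and 0 were lower. The edgeR test called the same 2 higher, DESeq2 called 3 with Itpka, and both called 0 lower. Each of Itpkb and Plcb1 was called in 2 of 8 fits without 1 library, with adjusted p values of 0.0530 to 0.0965 in the fits that lost them, those without KI replicate 1, 2 or 3 among them. Without KI replicate 4, 4 were higher and 1 lower. Itpka, a further IP3 kinase gene, was at 0.58 ± 0.19 (adjusted p = 0.0545, limma), with every KI library above every control and an unadjusted p under 0.05 in all 3 tests. Stim1, a calcium sensor of the store, was at -0.15 and had an unadjusted p under 0.05 in limma. Among the relatives of Rras2, Mras was higher at 0.51 ± 0.14 (SE, adjusted p = 0.0301, limma) and Rras, at -0.26 ± 0.11, was not called. Of 11 genes that regulate Ras proteins, 2 were lower, Rasal1 (-1.39 ± 0.29) and Rasa3 (-0.29 ± 0.09), both GTPase-activating proteins, and 1 was higher, Shoc2 (0.20 ± 0.06). Rasal1 was called in 8 of 8 fits without 1 library. Mras was called in 2 of them, without KI replicate 4 or control replicate 4 (0.0567 to 0.0919 in the others), and Rasa3 (0.0627 to 0.139) and Shoc2 (0.0552 to 0.105) in 1, without KI replicate 4.

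Lims1, which encodes PINCH1, was at -0.08 ± 0.10 and was not called. In the complex that PINCH proteins form with integrin-linked kinase and parvins, Parvb fell to 1061, 1132, 880 and 1849 normalized counts in KI BS, against 2404, 3151, 3364 and 3455 in control BS. Its log2 fold change was -1.37 ± 0.21 (SE, adjusted p = 0.00882, limma), and it was called in 8 of 8 fits without 1 library. Tln1, encoding the integrin activator talin, was lower at -0.42 ± 0.09 and Parva was higher at 0.28 ± 0.06, with adjusted p values of 0.0524 to 0.0579 for these genes without KI replicate 2 or control replicate 2. Ilk was at 0.94 to 6.24 normalized counts in all libraries and was not tested.

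Among 12 zinc transporter genes, set beside Tmem163, 1 was lower (Slc39a6, -0.33) and 2 were higher (Slc30a4, 0.42 and Slc30a9, 0.33). Over all genes tested, 12.4% were called lower and 12.0% higher. Among 9 genes of hyaluronan turnover, set beside Tmem2, 1 was lower, Hapln4 (-0.30), a link protein gene of neurons. Cemip, whose product is the closest relative of TMEM2, was at -0.26 ± 0.11 and was not called. In the fits without 1 library, Slc39a6 was called in 1 of 8 (without KI replicate 4), Hapln4 in 3, Slc30a9 in 6 and Slc30a4 in 7, each being lost without control replicate 2, where adjusted p values were 0.0503 or more.

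**Figure D4:**
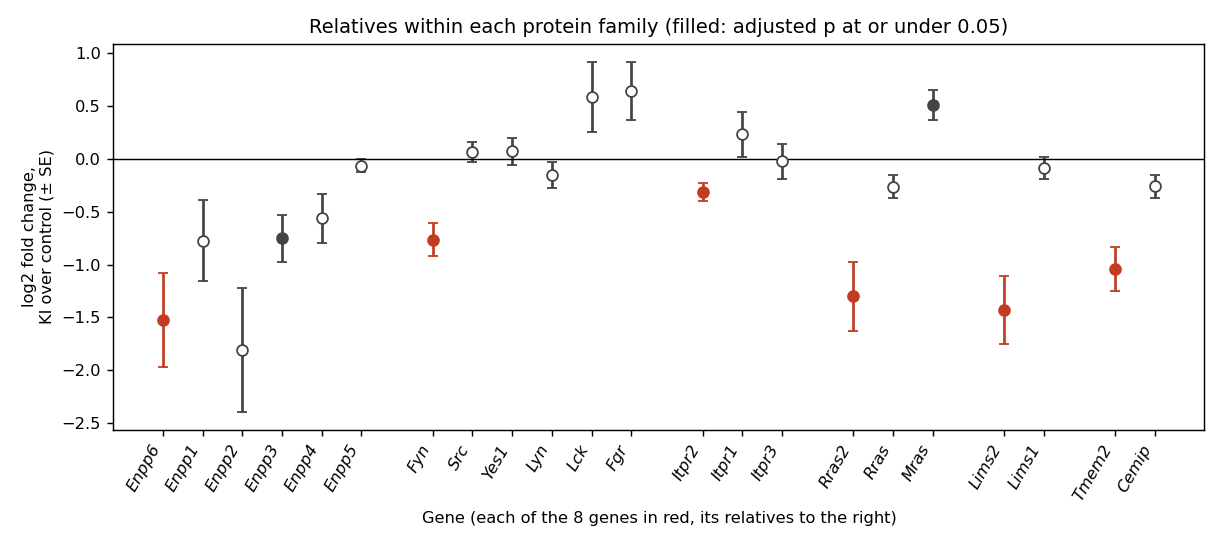
The log2 fold change, KI over control, with its SE for 6 of the 8 genes (red) and relatives of each, grouped by protein family, filled where the adjusted p was at or under 0.05. Fyn, Itpr2, Lims2 and Tmem2 are filled while none of the relatives shown beside them is, Enpp3 is filled beside Enpp6, and Mras lies above 0 beside Rras2.

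The 8 genes were then set beside other genes of the OL lineage. Of 16 other newly formed OL genes, 13 were lower and 0 higher in KI than in control BS, with a median log2 fold change of -1.14. The 4 with the smallest p were Cnksr3 (-1.44 ± 0.24), Tns3 (-0.44 ± 0.08), Mical3 (-0.44 ± 0.09) and Bmp4 (-1.87 ± 0.37). The 3 not called were Nkx2-2 (-0.86, adjusted p = 0.0553), Tcf7l2 (-0.31, adjusted p = 0.822) and Cyfip2 (0.04), a gene that neurons also express. DESeq2 called 13 lower, with Nkx2-2 but without Neu4, which limma called. EdgeR called 12 lower, with neither of these, and both tests called 0 higher. Tcf7l2, a transcription factor of newly formed OLs that thalamic and midbrain neurons also use, was at 2030 normalized counts in KI replicate 3 and 1355 in control replicate 4, against 154 to 299 in the other 6 libraries. Those are the same 2 libraries that were low in Ttr. In the fits without 1 library, 6 to 14 of the 16 were called, with 6 without KI replicate 2 or control replicate 2.

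The genes called from earlier and later stages were lower in KI BS too. Of 15 OPC markers 8 were lower and 0 higher (median -0.83), with Cspg4 (NG2, -2.12 ± 0.36), Sapcd2, Cacng4 and Vcan having the smallest p and Ptprz1 at 0.41 ± 0.21. Of 22 myelinating OL genes 11 were lower and 0 higher (median -1.19), with Adamts4, Cnp (-1.65 ± 0.38) and Mag among those of smallest p, and of 8 regulators of the lineage 7 were lower (median -1.40), led by Sox8, Zfp536, Olig1 and Zfp488. These counts fell to 3, 0 and 3 without KI replicate 2 and to 2, 1 and 4 without control replicate 2, and were 11, 18 and 8 without KI replicate 4, where Ptprz1 was called higher, and 6 to 8, 2 to 13 and 7 in the fits without any 1 other library. For the myelinating OL genes edgeR called 5 and DESeq2 called 7. Over all 8 libraries no gene of the 4 OL lists was called higher by edgeR or DESeq2, and none with a positive log2 fold change had an unadjusted p under 0.05 in limma. Whether the 8 genes differed from these lists was not tested.

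Markers of other cells were read for the same libraries. Of 12 astrocyte markers 9 were higher and 0 lower (median 0.72), and their summed normalized counts were 226000 to 403360 in KI BS and 170050 to 206720 in control BS. The 9 astrocyte calls became 2 without KI replicate 2 or control replicate 2 and 6 to 11 without any 1 other library. Of 12 pan-neuronal markers 2 were higher (Snap25 and Map2) and 1 lower (Syn1), with a median of -0.05. Of 10 microglia markers 0 were called by limma, edgeR or DESeq2 and 0 had an unadjusted p under 0.05 in them. Of 10 endothelial markers 2 were lower, Kdr and Tie1, while 6 log2 fold changes were negative and 4 positive (median -0.13). EdgeR and DESeq2 called the same 2 lower and 1 higher, Slco1a4. In limma, no neuronal or endothelial marker was called without KI replicate 2 or control replicate 2. The 9 choroid plexus markers ranged from 928 to 36261 summed normalized counts in KI BS and from 506 to 104460 in control BS and 0 were called in any of the 3 tests, with 0, 3 and 2 at an unadjusted p under 0.05 in limma, edgeR and DESeq2. Without control replicate 4 limma called 6 of the 9 choroid plexus markers lower in KI BS, and 3348 of 15121 genes in either direction. Without both libraries low in Ttr it called all 9 lower, and 1843 of 15103 genes in either direction. Those 2 libraries were left out for a low choroid plexus transcript, so that fit selects on the trait of this list. The part of the astrocyte and choroid plexus transcripts in the values of the 8 genes was not tested.

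**Figure D5:**
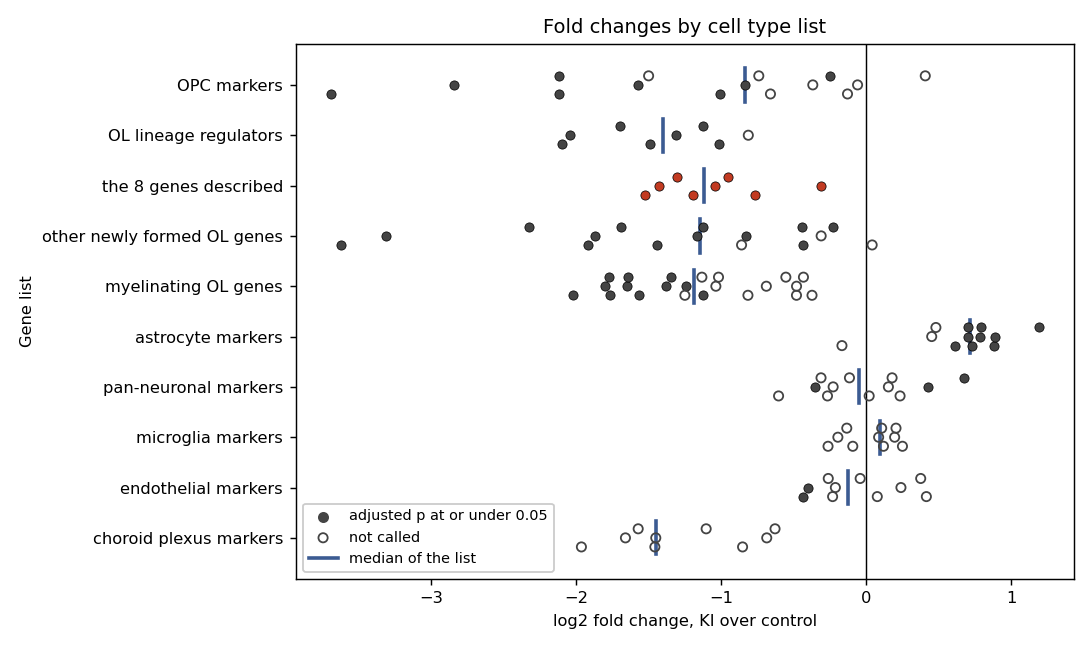
The log2 fold change of every tested gene of each cell type list, KI over control, filled where the adjusted p was at or under 0.05, with the median of the list as a blue line and the 8 genes in red. The 8 genes lie between -1.53 and -0.31, within the range of the other OL lists, while astrocyte markers lie mostly above 0.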

How the data were processed

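Paired-end RNA-seq reads of 8 BS libraries were aligned to mm10 with STAR 2.7 and counted with HTSeq without strand (union mode, ambiguous reads left out), as given in the submitters' processing notes and the study's methods. The deposited signal is a normalized count: the authors took the reads of a gene and scaled them by the size factor of the library from DESeq2. The authors' fold changes, standard errors, test statistics and p-values stand in the same table and were not used. Of 24709 lines, 628 repeated a gene with the same values and were dropped. Undoing the division gave whole reads for 100% of values, within a tolerance of 0.01.

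The comparison of KI with control libraries used limma 3.58.1 (R 4.3.3) and a variance trend. It ran on log2 values after adding 1 to the normalized count, on genes with a mean of at least 10, which left 15123, and with Benjamini-Hochberg adjustment at 0.05. Fold changes on this scale understate those of low genes. The members held 185 to 14210 reads per library. The steps were tested on simulated counts with the same dispersion for all genes. There limma called 100 of 100 genes changed 3-fold but 14 of 100 changed 1.5-fold, with 4 false calls among 118. EdgeR 4.0.16, DESeq2 1.42.0, voom, other normalizations, filters and pseudocounts, Xist as a covariate, a replicate block and fits without each library were alternatives. The members and the 20 gene lists (205 entries, 201 found) were chosen with earlier results of these data known. Genes were named by rule: the members and their family relatives, in other lists the 4 called genes of smallest p and the one furthest the other way, and the genes most correlated with the members. Gpr17, Tcf7l2, Nkx2-2, Neu4, Ilk, Itpka, Ptprz1, Stim1, Slco1a4 and genes completing short counts were named after their values were seen. A few genes that the rule names are not reported here. Coordinates and exon lengths are from GENCODE M21 (GRCm38).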

Additional observations from a re-analysis of the deposited data

Results flagged for a closer look

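Among the 4 KI libraries, replicate 4 stood apart from the others for 3 of the 11 genes examined, with a gap that took most of the range of the KI values. No group of 4 control values had such a gap. Gpr17 was added after its values were seen. Chance alone gives such a gap in about 1 in 20 groups. Lims2 was at 641.554 normalized counts in KI replicate 4 and at 206.4 to 229.5 in the other KI libraries. Gpr17, which shares the locus, was at 5484.77 in KI replicate 4 and at 303.9 to 812 in the others. The Rosa26 transcript Gt(ROSA)26Sor was at 328.237 in KI replicate 4 and at 573 to 605 in the others. The 3 values come from 1 library and are not independent of each other.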

How the results depend on the processing

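The log2 fold changes of the 8 genes kept their negative sign under all 22 alternatives. Tmem163 and Fyn kept their call under 21, Tmem2 under 20, Lims2 under 18, Rras2 under 17, Enpp6 and Itpr2 under 11 and Bcas1 under 9. The 8 calls became 5 with log2 Xist as a covariate, 3 without the 2 libraries low in Ttr and 6 with a loess correction for GC content and length (7 at an unadjusted p under 0.05, Itpr2 moving to -0.18), and 3 to 8 when each library was left out. The 3685 calls over all genes became 2210 with Xist as a covariate, 1843 without the libraries low in Ttr, 1910 without those high in Xist, 2436 with the loess correction, and 888 to 5292 when each library was left out. With the loess correction 5391 of 15115 genes had an unadjusted p under 0.05. The Ttr, Xist-high and GC alternatives were chosen after seeing the data. Leaving out a library can only keep or raise the number of the 8 genes with every KI library below every control. That number was 5 to 8 when each library was left out, 8 without KI replicate 4. The share of all genes with this pattern was not counted with a library left out. With the replicate number as a block, limma called 0 of the 8 and 0 of 15123 genes, while 8 and 5087 had an unadjusted p under 0.05. The deviations of same-numbered libraries had r = 0.26, -0.12, -0.46 and -0.36, and 2 of 8 libraries correlated best with their own number. The labels give no pairing, and so few libraries cannot show whether the numbers pair any. The causes of these shifts were not tested. The 8 genes held at least 185 reads in each library.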

Other observations

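Outside the lists, the genes whose levels followed those of the 8 most closely over the libraries were lower in KI BS as well. Nfasc, which encodes the neurofascin that anchors OL processes to axons, had 11240, 10259, 7008 and 21044 normalized counts in KI libraries and 30151, 35577, 38778 and 31853 in control libraries, with a log2 fold change of -1.57 (adjusted p = 0.0106, limma). Sulf2, a sulfatase of heparan sulfate chains, was at 1342 to 3357 in KI BS and 4425 to 5193 in control BS, with a log2 fold change of -1.23 (adjusted p = 0.0117). Both were chosen for this likeness, so their direction follows from that choice.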
